A study of Danio rerio with 30 samples.

Results

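Undamaged neuromast cells of isl1a mutant larvae were compared with those of their siblings in 6 RNA-seq libraries, 3 from each genotype, out of 30 samples in the series. The comparison was chosen by genotype and treatment: all 6 libraries come from larvae kept in homeostasis, with no neomycin exposure. The mutants carry the allele isl1apsi97. The siblings come from the same line, and whether they were wild type or heterozygous is not given in the sources used here. Larvae of both genotypes carried the she:mcherry reporter, were 5 days post fertilization and came from the posterior lateral line preparation, from which mCherry-positive cells were sorted after trypsin dissociation. The cells driven by the reporter's promoter, the number of larvae pooled per library and their clutches are not given either, so the spread behind each p-value is that between 3 samples a genotype, which may be technical. Another 6 libraries, 3 of each genotype, were taken 3 h after larvae spent 30 min in 300 uM neomycin. They entered a separate fit that is used only at the end.

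The neuromasts of the lateral line are small sensory organs in the skin of fish. Each holds hair cells, whose bundles of stereocilia open mechanotransduction channels when water moves and whose ribbon synapses release glutamate onto afferent nerve fibres, surrounded by support cells and a rim of mantle cells. Support cells give rise to new hair cells after damage. isl1a encodes a LIM homeodomain transcription factor, a family known for specifying neurons and other cell identities, often in complexes with the cofactors of the Ldb and Lmo families.

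In homeostasis, the mutant libraries held almost no isl1a transcript, and 83 of 123 hair cell and cilia genes fell, by a median of 1.99-fold. Several other lists held more rises than falls. They include carbonic anhydrase and acid-base transport genes, where 8 of 33 rose, with red cell genes among them, and none fell. Mantle and anteroposterior markers are another such list (6 of 28 rose, none fell). The next 5 are further examples, in which most members were not called. Lists and members were chosen with earlier results of these data known, so the shares in this paragraph are no independent support. Of the AP-1 genes 6 of 17 rose, of other immediate early genes 12 of 42, of inflammation, Jak-Stat3 and NF-kB genes 12 of 40 (1 fell), of glycolysis and hypoxia genes 10 of 50 (4 fell) and of actin and membrane regulators 19 of 49 (2 fell). Markers of cells outside the neuromast rose as well, 11 of 17 of erythrocytes, 16 of 32 of skeletal muscle and 5 of 16 of endothelium, and their part in the other differences was not tested. Genes of central support cells, of the Notch, Fgf and Wnt pathways and of cell division were mostly not called. Of 20816 tested genes, 885 rose (4.25%) and 1332 fell (6.40%) in mutants at an adjusted p under 0.05, by the quasi-likelihood test of edgeR (Benjamini-Hochberg). The CPM of the genotypes did not overlap in 14.5% of all tested genes with mutants higher and in 16.1% with mutants lower. A lack of overlap alone is therefore common. The median log2 fold change of all tested genes was 0.00. Among those that rose the median change was 1.24 on the log2 scale, and 214 of them rose by at least 2. The genes that fell had a median absolute log2 fold change of 0.99, and 83 of them (6.23%) fell by at least 2. The total of 2217 calls was 1107 without mutant replicate 1, 1209 without mutant replicate 3 and 1421 without sibling replicate 2, and no call changed direction in any fit that left 1 library out. Unless a sentence says otherwise, each call printed for a named gene held when any 1 of the 6 libraries was left out. A fit of all 12 libraries, with 1 estimate of the spread for homeostasis and 3 h after neomycin, called 785 genes (407 higher, 378 lower), and the calls that it lost are given with each group. Where no member of a list is said to have risen or fallen, 0 to 7 members passed an unadjusted p under 0.05 in that direction and 0 to 3 passed by DESeq2.

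The libraries were of like depth, with 26631753 to 29982980 counts in genes and 25403 to 27022 genes detected each. The first principal component held 46.2% of the variance and put all 3 mutant libraries on one side and all 3 sibling libraries on the other. The second, with 20.6%, spread the sibling libraries more than the mutant ones. Values are CPM, gene counts scaled with TMM to a common library size, and are not divided by gene length, so levels are compared between libraries and not between genes. Gene names are those of the name table, often human-style, and an Ensembl ID is added where paralogs share a name. Multimapping reads are left out of the gene counts, which makes the levels of near-identical paralogs, such as the globin genes, uncertain.

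The targeted gene followed the labels in every library. isl1a (named ISL1, ENSDARG00000004023) had 3351, 5607 and 5189 counts in the 3 sibling libraries and 0, 1 and 0 counts in the 3 mutant libraries. Over each genotype that is 14147 counts against 1. Siblings were thus 13922 times higher, with a 95% interval for counting error of 2498 to 549910. Its close paralog isl1b had at most 1 count in any of the 6 libraries and was not tested. Transcripts of the neuromast epithelium were present in both genotypes, and 3 abundant ones that were not called are given here. The sensory organ factor gene EYA1 went from 1593 ± 123 to 1597 ± 66.3 CPM (adjusted p = 0.99), where ± gives the SD of 3 libraries here and below. The progenitor factor gene SOX2 went from 378 ± 102 to 414 ± 29 CPM (adjusted p = 0.75) and the epithelial adhesion gene epcam from 2412 ± 459.9 to 3774 ± 460.4 CPM (adjusted p = 0.055).

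**Figure D1:**
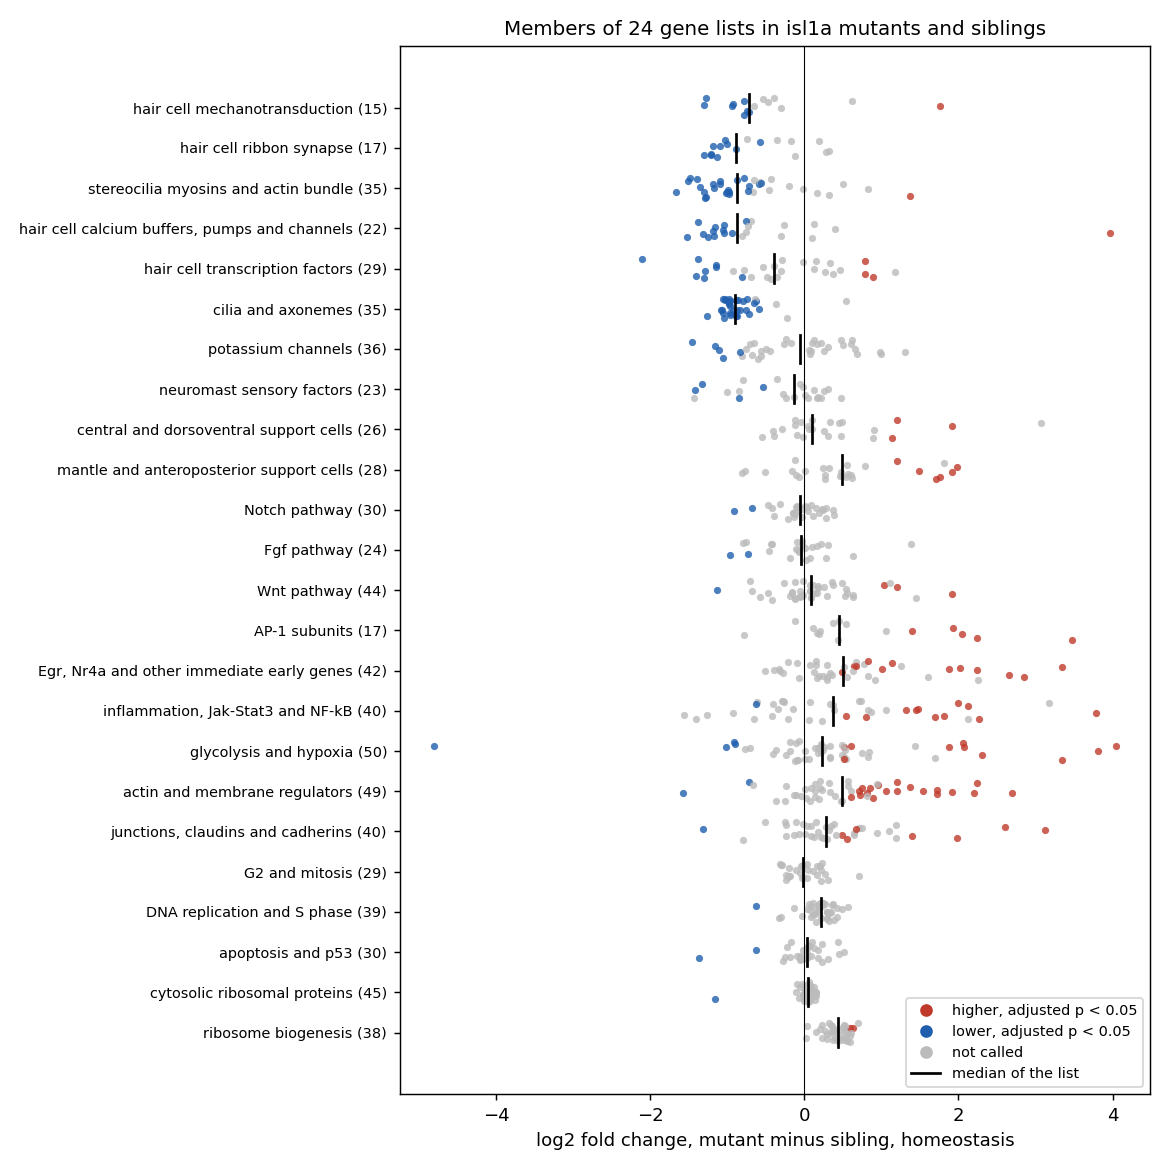
Log2 fold change, mutant minus sibling in homeostasis, of the tested members of 24 gene lists; each point is a gene, colours mark calls at an adjusted p under 0.05, black bars are list medians and numbers in brackets are genes tested. The 3 members with at most 3 counts in all libraries of a genotype (ISL1, fosl1b and lepb) are not drawn; hair cell and cilia lists lie to the left of 0, and AP-1, immediate early and actin lists to the right.

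Hair cell genes were lower in mutants in each class that was listed. In 5 lists of effector genes together, covering mechanotransduction, the ribbon synapse, the bundle, calcium handling and cilia, 83 of 123 tested genes (67.5%) fell and 3 rose, where 6.40% of all tested genes fell and 4.25% rose. The median log2 fold change of the 123 was −0.87. Those that fell had log2 fold changes from −1.66 to −0.57 with a median of −0.99, a 1.99-fold lower level. The 12-library fit called 21 of the 123 lower (where 1.72% of all genes were) and 1 higher, with a median of −0.87. These are bulk samples, in which fewer hair cells and less RNA per hair cell cannot be told apart.

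The transduction apparatus sits at the tips of the stereocilia. Of its 15 tested genes 8 fell and 1 rose, with a median of −0.72. The 8 became 3 without mutant replicate 1 and 4 without mutant replicate 3, and 0 in the fit of all 12 libraries, with adjusted p from 0.064 to 0.18 for the 4 called genes named here. TMC2 (ENSDARG00000030311), which encodes a pore-forming subunit of the channel, stood at 174, 136 and 127 CPM in siblings and 57.4, 69 and 54.8 CPM in mutants (adjusted p = 0.0022, log2 fold change −1.27 with SE 0.16). All mutant libraries lay below all sibling libraries. The gene tmie, whose product joins that channel complex, fell from 12.7 ± 1.76 to 5.13 ± 1.18 CPM (adjusted p = 0.0077, log2 fold change −1.3 with SE 0.22). lhfpl5b, which encodes another membrane partner of the channel, fell from 113 ± 13.1 to 65.5 ± 4.21 CPM (adjusted p = 0.0056). The tip link genes were closer to the threshold. PCDH15 (ENSDARG00000008127) fell by 0.72 on the log2 scale (adjusted p = 0.015, lost with mutant replicates 1 or 3 left out, at adjusted p from 0.067 to 0.075). Its paralog PCDH15 (ENSDARG00000098257) had a log2 fold change of −0.48 (adjusted p = 0.11) and CDH23 one of −0.65 (adjusted p = 0.057).

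At the ribbon synapse 10 of 17 genes fell and none rose, with a median of −0.89. OTOF (ENSDARG00000020581), the calcium sensor of vesicle fusion in hair cells, was at 2332, 2329 and 2058 CPM in siblings and 943, 1056 and 968 CPM in mutants (adjusted p = 0.0015, log2 fold change −1.18 with SE 0.13). The genotypes did not overlap. Its paralog OTOF (ENSDARG00000030832) fell from 332 ± 44.1 to 179 ± 12 CPM. SLC17A8, the vesicular glutamate transporter that fills synaptic vesicles in hair cells, fell from 422 ± 96.3 to 193 ± 24.7 CPM (adjusted p = 0.0063). The gene cacna1da, which encodes the calcium channel that triggers release, fell from 31 ± 4.73 to 15.22 ± 0.378 CPM (adjusted p = 0.0042). The scaffold gene PCLO fell by 1.3 and the ribbon protein gene ctbp2a by 0.58 on the log2 scale, the latter call lost with mutant replicate 1 left out, at adjusted p = 0.067. With all 12 libraries in the fit 4 of the list fell, and the calls of cacna1da and ctbp2a were lost (adjusted p from 0.11 to 0.13).

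Of 35 genes of the stereocilia and their actin core, 23 fell and 1 rose, with a median of −0.87. MYO3B, which encodes a myosin that moves along stereocilia, had the smallest p of the genes that fell other than isl1a. It stood at 75, 85 and 74.1 CPM in siblings and 25, 24.8 and 24.2 CPM in mutants (adjusted p = 0.00059, log2 fold change −1.66 with SE 0.11), and the mutant libraries differed by less than 1 CPM from each other. MYO6 (ENSDARG00000042141), a myosin of the stereocilia base, was at 592, 625 and 526 CPM in siblings and 230.4, 251 and 235 CPM in mutants (adjusted p = 0.0011, log2 fold change −1.28 with SE 0.12), with no overlap. Its paralog MYO6 (ENSDARG00000044016) went from 85 ± 5.3 to 95.5 ± 7.73 CPM and was not called (adjusted p = 0.42). MYO7A (ENSDARG00000099871) and the actin crosslinker gene FSCN2 (ENSDARG00000074396) fell by 1.01 and 1.18 on the log2 scale, and strc1, a stereocilin gene of the links between stereocilia, by 0.99. The 1 gene of this list that rose was a paralog of whirlin, WHRN (ENSDARG00000068166), at low level (3.17 to 8.25 CPM, adjusted p = 0.022, lost with mutant replicate 3 or sibling replicates 2 or 3 left out, at adjusted p from 0.056 to 0.083). The other whirlin gene, WHRN (ENSDARG00000075362), fell by 0.78. In the 12-library fit 9 genes of the list fell and none rose, and the calls of MYO7A, strc1 and both whirlin genes were lost (adjusted p from 0.057 to 0.26).

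Hair cells buffer and extrude much calcium, and 12 of 22 genes of calcium handling and hair cell ion channels fell. pvalb8, a parvalbumin, was the most abundant of them and fell from 27735 ± 2862 to 13475 ± 1811 CPM (adjusted p = 0.0063, log2 fold change −1.04 with SE 0.17). s100t, an S100 calcium-binding protein, was at 5959, 4842 and 6754 CPM in siblings and 2292, 3139.9 and 2289 CPM in mutants (adjusted p = 0.0061, log2 fold change −1.19 with SE 0.19), and the genotypes did not overlap. The calcium pump gene ATP2B1 fell from 1199 ± 144 to 506 ± 74.4 CPM. The sodium pump subunit gene ATP1B2 (ENSDARG00000034424) fell from 274 ± 21.6 to 105 ± 11.3 CPM and the efferent acetylcholine receptor gene CHRNA9 from 124 ± 9.02 to 55.3 ± 10.1 CPM (adjusted p = 0.0026). The calretinin gene CALB2 went the other way, but unevenly. It had 8, 39 and 7 counts in siblings and 94, 618 and 105 counts in mutants, with mutant replicate 2 far above the other libraries. Its call (adjusted p = 0.033) was lost with mutant replicate 2 or sibling replicates 1 or 3 left out, at adjusted p from 0.064 to 0.095. The count that fell ranged from 11 to 12 with any 1 library left out and was 3 with all 12 libraries in the fit, where the calls of pvalb8, s100t, ATP2B1, CHRNA9 and CALB2 were lost (adjusted p from 0.063 to 0.24).

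Among 29 transcription factor genes of hair cells and their progenitors, 8 fell (27.6%) and 3 rose (10.3%), with a median of −0.40. Of all tested genes 6.40% fell and 4.25% rose. The 3 became 1 without mutant replicate 1 and 1 without sibling replicate 2. The factors of maturing hair cells fell. BARHL1, a homeobox gene, was at 18.5, 24.4 and 19 CPM in siblings and 4.31, 5.54 and 4.57 CPM in mutants (adjusted p = 0.0011, log2 fold change −2.10 with SE 0.19), a larger fall than that of any called gene of the 5 lists above. Its paralog barhl1a fell from 130.2 ± 15.6 to 49 ± 7.16 CPM. POU4F3, required for hair cell survival in mammals, was at 115, 90.7 and 95.2 CPM in siblings and 45.8, 49 and 41.2 CPM in mutants (adjusted p = 0.0018, log2 fold change −1.14 with SE 0.13). The zinc finger gene GFI1 fell from 164 ± 17.7 to 63.1 ± 7.8 CPM and gfi1aa from 247 ± 21.8 to 112 ± 19.3 CPM. In these 3 genes the genotypes did not overlap. ATOH1, which starts the hair cell programme, was at 100, 113 and 141 CPM in siblings and 82, 102 and 79 CPM in mutants. The genotypes overlapped and it was not called (adjusted p = 0.14, log2 fold change −0.43 with SE 0.16). The genes that rose were SOX4 (ENSDARG00000004588), from 51.8 ± 9.78 to 89.3 ± 9.27 CPM, and the pair of SOX11 genes, which are expressed in progenitors and young neurons. SOX11 (ENSDARG00000095743) rose from 50.5 ± 4.25 to 87.3 ± 11.1 CPM. The call of SOX11 (ENSDARG00000077811) was lost with mutant replicates 1 or 3 or sibling replicate 2 left out, at adjusted p from 0.053 to 0.11 and that of SOX4 with mutant replicate 1 or sibling replicate 2 left out, at adjusted p from 0.055 to 0.069. In the 12-library fit 4 of the 29 fell, and the calls of POU4F3, GFI1 and gfi1aa were lost (adjusted p from 0.056 to 0.077), as was that of SOX11 (ENSDARG00000077811, adjusted p = 0.068).

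**Figure D2:**
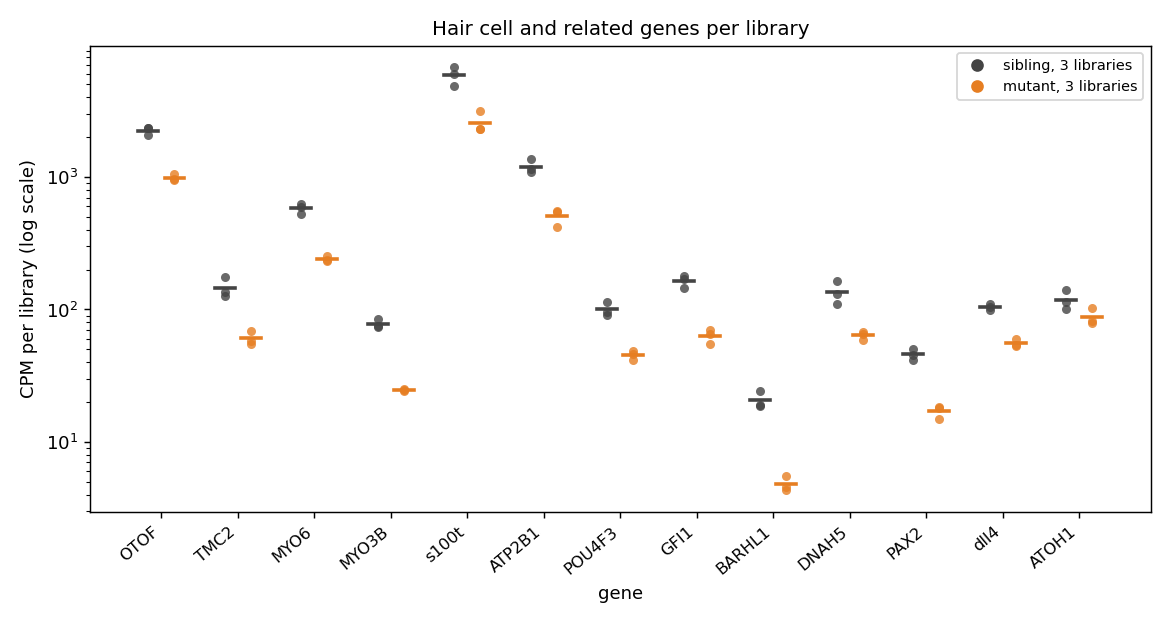
CPM per library on a log axis for 13 genes of hair cells and the sensory epithelium; points are the 3 libraries of a genotype and bars their means. The genotypes do not overlap for the first 12 genes, whereas ATOH1 does overlap. Of all tested genes 16.1% show no overlap with mutants lower.

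Genes of cilia and axonemes fell: 31 of 35 were lower and none higher, with a median of −0.89. Without mutant replicate 1 the count was 20, and with all 12 libraries in the fit it was 5, with the calls of DAW1, RSPH4A and FOXJ1 below lost (adjusted p from 0.08 to 0.19). In the lateral line the kinocilium of the hair cell is the main long cilium, and its axoneme uses the dynein arms, radial spokes and tektins of this list. The dynein heavy chain gene DNAH5 was at 164, 131 and 109.6 CPM in siblings and 64.7, 67.9 and 58.9 CPM in mutants (adjusted p = 0.0043, log2 fold change −1.08 with SE 0.16). DAW1, an assembly factor of dynein arms, fell from 162 ± 7.48 to 67.6 ± 10.7 CPM and the radial spoke gene RSPH4A from 45.7 ± 2.91 to 24.6 ± 2.27 CPM. The genes of FoxJ1, the factor that switches on motile cilia genes, moved with them. Of these, foxj1b fell from 18.8 ± 2 to 9.26 ± 1.36 CPM (adjusted p = 0.0076) and FOXJ1 from 159 ± 17.3 to 94.9 ± 15.4 CPM (adjusted p = 0.015, lost with mutant replicates 1 or 3 left out, at adjusted p from 0.07 to 0.077).

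Lists of potassium channels and of neural genes changed at a minority of members, where 6.40% of all genes fell. Of 36 potassium channel genes 5 fell and none rose, with a median of −0.05 (3 fell in the 12-library fit). They included the large-conductance channel gene KCNMA1 (ENSDARG00000079840), from 109 ± 18.2 to 49.1 ± 4.1 CPM, and KCNS3, a modulatory subunit gene, from 15.6 ± 2.3 to 5.72 ± 0.526 CPM. In the list of neuropeptides, receptors and neural adhesion, 5 of 47 fell and 2 rose, with a median of −0.16, and both rises were lost when any 1 of several libraries was left out. BDNF, a neurotrophin that hair cells supply to their neurons, was at 171, 147 and 167 CPM in siblings and 61.7, 81.1 and 60.6 CPM in mutants (adjusted p = 0.0018, log2 fold change −1.25 with SE 0.15), with no overlap. The synaptic adhesion gene nrxn3b fell from 352 ± 55.7 to 151 ± 8.06 CPM, the peptide gene adcyap1b from 41.8 ± 3.62 to 17.7 ± 2.59 CPM and the growth factor gene GDNF (ENSDARG00000103764) from 38 ± 6.02 to 19.6 ± 2.84 CPM. Of this list 1 gene fell and none rose with all 12 libraries in the fit, and the calls of BDNF, adcyap1b and GDNF were lost (adjusted p from 0.077 to 0.36).

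Of 23 tested LIM homeodomain genes and cofactors, 4 fell (17.4%), isl1a included, and 2 rose (8.7%), with a median of −0.23. Of all tested genes 6.40% fell and 4.25% rose, and the shares of this list rest on few calls. LHX3, a LIM homeodomain factor known in hair cells, fell from 16.7 ± 1.75 to 6.86 ± 0.341 CPM (adjusted p = 0.0024). The cofactor genes LMO3 and LDB2 (ENSDARG00000034896) had log2 fold changes of −1.19 and −1.21, the latter call lost with mutant replicates 1 or 3 left out, at adjusted p from 0.055 to 0.059. LMO2, a cofactor known from blood and endothelial cells, rose from 2.36 ± 0.575 to 7.97 ± 0.483 CPM (adjusted p = 0.0037). The more abundant cofactor genes were close to level, with LMO4 at a log2 fold change of 0.00 and LDB1 (ENSDARG00000010137) at −0.23 (adjusted p = 0.2). The pair of ISL2 genes, also relatives of isl1a, was not tested for a difference between them. ISL2 (ENSDARG00000003971) stood at 14, 16.8 and 19.9 CPM in siblings and 14.3, 17.5 and 14.8 CPM in mutants and was not called (adjusted p = 0.73). The other, ISL2 (ENSDARG00000053499), with 14, 12 and 10 counts in siblings and 26, 42 and 60 counts in mutants, rose by 1.85 on the log2 scale (adjusted p = 0.035, lost with mutant replicates 2 or 3 or sibling replicates 1, 2 or 3 left out, at adjusted p from 0.066 to 0.15). The calls of LMO3 and of this ISL2 gene were lost in the 12-library fit (adjusted p from 0.066 to 0.094).

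Of 23 sensory organ factor genes outside the hair cell lists 4 fell (17.4%) and none rose, with a median of −0.14. Of all tested genes 6.40% fell, and the share of this list rests on few calls. Both tested PAX2 genes, whose products are known in hair cells of fish, fell. PAX2 (ENSDARG00000032578) stood at 50.5, 45.3 and 41.4 CPM in siblings and 14.9, 18.3 and 18.1 CPM in mutants (adjusted p = 0.0012, log2 fold change −1.42 with SE 0.14) and PAX2 (ENSDARG00000028148) fell from 44.2 ± 11.1 to 17.6 ± 0.333 CPM. Neither pair of groups overlapped. PRDM1, a zinc finger repressor, fell from 314 ± 11.6 to 175 ± 31.7 CPM (adjusted p = 0.0086). The factor gene sox21a had a log2 fold change of 0.04 and was not called (adjusted p = 0.86).

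Support cell markers were read in a list for the centre of the organ and a list for its rim, whose difference was not tested. Of all tested genes 4.25% rose and 6.40% fell. Of 26 central and dorsoventral markers 3 rose (11.5%) and 1, isl1a itself, fell (3.85%), with a median of 0.10. The 3 became 1 without mutant replicate 1 and 1 without sibling replicate 2. Of 28 mantle and anteroposterior markers 6 rose (21.4%) and none fell, with a median of 0.48 beside 0.00 for all genes. Those 6 became 3 without mutant replicate 1 and 3 without sibling replicate 2. The log2 fold change was below 0 in 7 of the 28. At an unadjusted p under 0.05 by edgeR 3 mantle markers were lower, and DESeq2 called 1 lower. SFRP1 (ENSDARG00000035521), a secreted Wnt inhibitor counted in both lists, was at 212, 189 and 254 CPM in siblings and 412, 425 and 670.2 CPM in mutants (adjusted p = 0.009, log2 fold change 1.2 with SE 0.21). Its paralog SFRP1 (ENSDARG00000057678), also counted in both lists, rose by 1.91 on the log2 scale (adjusted p = 0.025). That call was lost with mutant replicates 1 or 3 or sibling replicates 1 or 2 left out, and in the 12-library fit. Both SFRP1 genes are among the 3 central and the 6 mantle rises. PKHD1L1 (ENSDARG00000091116), a large membrane protein listed with mantle cells and, from its place on mammalian stereocilia, also with the transduction genes, rose from 55.7 ± 9.69 to 189 ± 51.2 CPM (adjusted p = 0.0024, log2 fold change 1.77 with SE 0.22). The cathepsin gene cts12 was at 20.3, 10.6 and 23.9 CPM in siblings and 54.7, 72.3 and 52.7 CPM in mutants (adjusted p = 0.0065, log2 fold change 1.71 with SE 0.28), so all mutant libraries were above all siblings. TNC (ENSDARG00000078362), a matrix glycoprotein, rose from 8.24 ± 3.48 to 23.2 ± 8.82 CPM, a call lost with mutant replicates 1 or 3 or sibling replicates 2 or 3 left out, at adjusted p from 0.068 to 0.11 and in the 12-library fit (adjusted p = 0.13), where 1 central marker rose. Abundant central markers did not pass, among them SLC1A3 (ENSDARG00000104431), a glutamate transporter gene (1156 to 869.6 CPM, adjusted p = 0.36), and LFNG, which modifies Notch receptors (816 to 621 CPM, adjusted p = 0.44).

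Signalling pathways that pattern neuromasts changed at few members, where 4.25% of all tested genes rose and 6.40% fell. The share that fell was 6.67% for the Notch list and 8.33% for the Fgf list. The share that rose was 6.82% for the Wnt list and 9.09% for the Bmp and Tgf-beta list. These shares are near those of all genes or rest on few calls, so no change of a pathway is read from them. Of 30 Notch pathway genes 2 fell and none rose, both of them ligand genes. The ligand gene dll4 was at 99.3, 109.5 and 103 CPM in siblings and 59.5, 53.8 and 53.2 CPM in mutants (adjusted p = 0.002, log2 fold change −0.91 with SE 0.11), with no overlap. The second, jag2b, fell from 211 ± 27.4 to 132 ± 2.55 CPM (adjusted p = 0.011, lost with mutant replicates 1 or 3 left out, at adjusted p from 0.051 to 0.054). The receptor genes NOTCH1 (ENSDARG00000103554) and NOTCH3 had log2 fold changes of 0.03 and 0.08. Of 24 Fgf pathway genes the pair of FGF10 ligand genes fell, FGF10 (ENSDARG00000030932) from 207 ± 14.6 to 125 ± 6.18 CPM and FGF10 (ENSDARG00000100475) from 66.9 ± 8.27 to 34.2 ± 3.15 CPM, while the receptor and feedback genes listed did not pass. Of 44 listed Wnt pathway genes 3 rose, all of the secreted Frizzled-related family of inhibitors (the 3 became 1 without mutant replicate 1 and 1 without sibling replicate 2). They are SFRP2 and both SFRP1 genes counted above among the support cell markers. The 1 that fell was the receptor gene FZD9 (ENSDARG00000014673), by 1.13 (adjusted p = 0.036, lost with mutant replicates 1 or 3 or sibling replicates 2 or 3 left out, at adjusted p from 0.055 to 0.13). The list leaves out the Wnt ligand gene WNT9B, which also rose and is given below. SFRP2 rose from 37.8 ± 11.4 to 77.2 ± 13.3 CPM (adjusted p = 0.02, lost with mutant replicates 1 or 3 or sibling replicate 2 left out, at adjusted p from 0.063 to 0.086). In the Bmp and Tgf-beta list 4 of 44 rose and 2 fell, and the 4 became 2 without mutant replicate 1 and 2 without mutant replicate 3. TGFBR2 (ENSDARG00000059363), a Tgf-beta receptor gene, rose from 0.812 ± 0.282 to 6.25 ± 1.77 CPM. The target genes ID3 and ID4 moved apart, ID3 from 11.7 to 21.4 CPM and ID4 from 13.8 to 5.97 CPM (adjusted p = 0.0075 and 0.0084). With all 12 libraries in the fit the calls of jag2b, FGF10 (ENSDARG00000100475), ID3 and ID4 were lost (adjusted p from 0.064 to 0.19).

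Genes of the AP-1 transcription factor, a dimer of Fos and Jun proteins induced by stress and growth signals, were higher in mutants. Of 17 tested subunit genes 6 rose and none fell, with a median of 0.45, against 4.25% of all genes that rose. FOSL1 was at 3.18, 2.35 and 4.18 CPM in siblings and 30, 36.8 and 41.2 CPM in mutants (adjusted p = 0.00059, log2 fold change 3.47 with SE 0.24), so the lowest mutant library stood far above the highest sibling. FOSL2 rose from 11.6 ± 0.991 to 44.4 ± 10.9 CPM, and JUNB (ENSDARG00000104773) was at 94.8, 54.3 and 81.3 CPM in siblings and 361, 252 and 334 CPM in mutants (adjusted p = 0.0016, log2 fold change 2.04 with SE 0.23). fosl1b had no count in any sibling library and 118 counts over the mutant libraries, which is at least 40-fold higher when the floor for the siblings is set at 3 counts over the group. The JUN gene itself went from 426 ± 79.4 to 619 ± 30.8 CPM and was not called (adjusted p = 0.064). ATF3, a related stress factor, rose from 21.3 ± 11.1 to 55.9 ± 4.15 CPM and its call was lost with mutant replicates 1, 2 or 3 or sibling replicate 1 left out, at adjusted p from 0.057 to 0.11 and in the 12-library fit (adjusted p = 0.051).

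Other immediate early genes went up with them. Of 42, 12 rose (28.6%) and none fell (median 0.50), where 4.25% of all tested genes rose. But the count that rose was 5 without mutant replicate 1, 19 without sibling replicate 1 and 7 without sibling replicate 2. The zinc finger factor gene egr1 was at 45.7, 18 and 18.8 CPM in siblings and 95.8, 113 and 125 CPM in mutants (adjusted p = 0.0078, log2 fold change 2.02 with SE 0.34). Its relative egr2a rose from 2.49 ± 0.459 to 15.7 ± 4.02 CPM. CCN2, a matricellular target of the Yap pathway, rose from 6.28 ± 2.74 to 45.4 ± 14.9 CPM (adjusted p = 0.0028), as did amotl2b, an angiomotin gene of that pathway, from 10.8 ± 1.85 to 48.4 ± 4.16 CPM. hbegfa, an Egf receptor ligand, rose from 7.14 ± 0.704 to 15.7 ± 2.3 CPM. The growth control gene MYC (ENSDARG00000007241) rose slightly (23.1 to 32.5 CPM, adjusted p = 0.042), and its call was lost when any 1 of the 6 libraries was left out. With all 12 libraries in the fit 7 of the list rose, and the calls of hbegfa and MYC were lost (adjusted p from 0.077 to 0.28).

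In the list of inflammation, Jak-Stat3 and NF-kB genes, 12 of 40 rose (30%) and 1 fell (2.5%), with a median of 0.38. Of all tested genes 4.25% rose and 6.40% fell. il6st, the shared receptor subunit of interleukin 6 type cytokines, was at 43, 42.8 and 58.3 CPM in siblings and 126, 141 and 134 CPM in mutants (adjusted p = 0.0012, log2 fold change 1.48 with SE 0.15), with no overlap. SOCS3 (ENSDARG00000025428), a feedback inhibitor that Stat3 induces, rose from 36.6 ± 15.4 to 99.6 ± 7.49 CPM (adjusted p = 0.0094, log2 fold change 1.45 with SE 0.26). The leptin gene lepa, known for its induction by injury in fish, rose from a very low level. It had 12, 18 and 27 counts in siblings and 357, 266 and 163 counts in mutants (adjusted p = 0.0016). The receptor gene tnfrsf1a rose from 15.6 ± 5.85 to 54.5 ± 7.99 CPM and the chemokine gene cxcl8a from 0.844 ± 0.309 to 3.68 ± 0.805 CPM. STAT3 itself went from 195 ± 62 to 347 ± 55.9 CPM and was not called (adjusted p = 0.065), and the NF-kB inhibitor gene nfkbiab had a log2 fold change of −0.61 (adjusted p = 0.16). The gene that fell was relb, a subunit of NF-kB (69.6 to 45.3 CPM, lost with mutant replicates 2 or 3 or sibling replicate 2 left out, at adjusted p from 0.057 to 0.069). In the 12-library fit the calls of cxcl8a and relb were lost (adjusted p from 0.083 to 0.26). Beside these, 1 of 32 leukocyte markers rose and none fell, and their summed level was 271 to 364 CPM in siblings and 366 to 416 CPM in mutants; the part of leukocytes in these values was not tested. Among steroid and prostaglandin genes HSD11B2, the enzyme that inactivates cortisol, was at 15.23, 14.6 and 13.2 CPM in siblings and 98.1, 149 and 77.3 CPM in mutants (adjusted p = 0.00087, log2 fold change 2.91 with SE 0.24). The glucocorticoid receptor gene NR3C1 was not called (log2 fold change −0.15, adjusted p = 0.47).

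**Figure D3:**
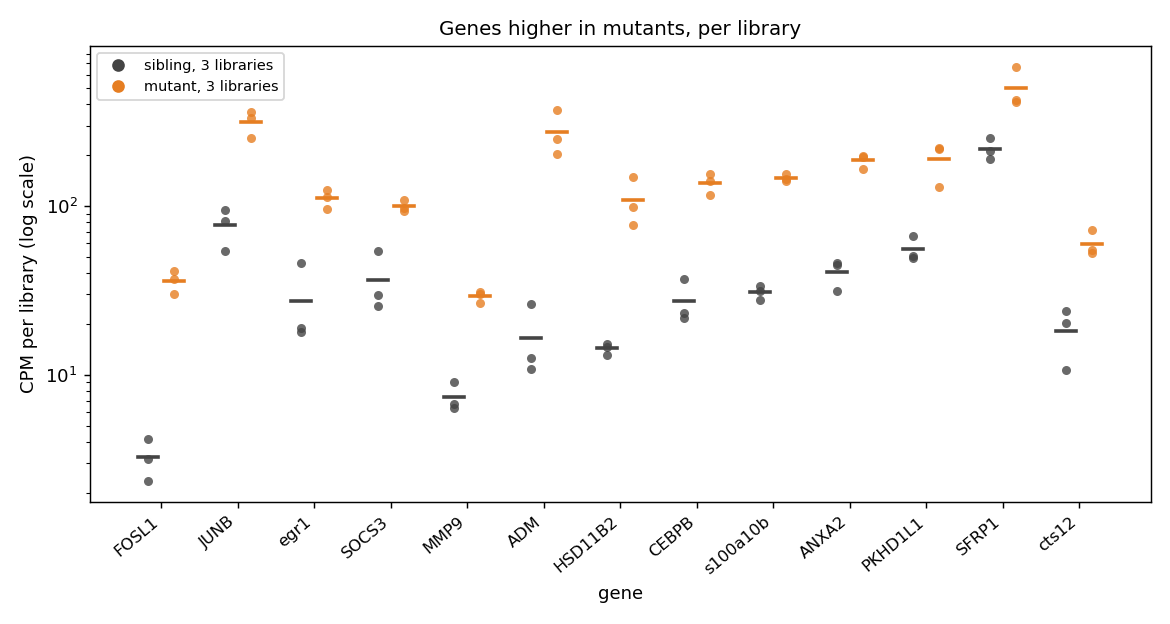
CPM per library on a log axis for 13 genes that rose in mutants; points are the 3 libraries of a genotype and bars their means. All mutant libraries lie above all sibling libraries for each gene drawn, but some of these genes were chosen by a rule that required it. Of all tested genes 14.5% show no overlap with mutants higher.

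Genes of glycolysis and hypoxia, read as 1 list, changed at a minority of members. Of 50 genes 10 rose (20%) and 4 fell (8%), with a median of 0.23, where 4.25% of all tested genes rose and 6.40% fell. The 10 became 6 without mutant replicate 1, 6 without mutant replicate 2, 6 without mutant replicate 3, 16 without sibling replicate 1 and 6 without sibling replicate 2. In the 12-library fit 6 rose and 2 fell, and the calls of hif1aa and SLC2A1 below were lost (adjusted p from 0.1 to 0.27). ADM (ENSDARG00000069027), the vasodilator peptide adrenomedullin and a target of Hif, was at 26.3, 12.7 and 10.8 CPM in siblings and 369, 205 and 251 CPM in mutants (adjusted p = 0.0011, log2 fold change 4.05 with SE 0.38). Its paralog ADM (ENSDARG00000015263) rose from 7.36 ± 4.05 to 104 ± 33.7 CPM. The oxygen-sensor gene EGLN3 rose from 2.02 ± 0.854 to 9.93 ± 3.61 CPM, ANKRD37, another Hif target, from 1.09 ± 0.295 to 11.1 ± 3.31 CPM and PFKFB3, which raises glycolytic flux, from 5.78 ± 1.38 to 24.1 ± 2.71 CPM. hif1aa, a Hif subunit gene, fell from 26.3 ± 1.74 to 14.1 ± 2.46 CPM (adjusted p = 0.01), and the glucose transporter genes moved apart, slc2a3a down by 1.02 and SLC2A1 (ENSDARG00000007412) up by 0.60 on the log2 scale. PKLR, the pyruvate kinase of liver and red cells, fell from 134 ± 53.1 to 4.82 ± 3.06 CPM (adjusted p = 0.0016, log2 fold change −4.80 with SE 0.54). Of 33 carbonic anhydrase and acid-base transport genes 8 rose (24.2%) and none fell. They were led by ca4a, a membrane-bound carbonic anhydrase, at 0.591, 0.47 and 0.635 CPM in siblings and 10.7, 13 and 9.71 CPM in mutants (adjusted p = 0.00037, log2 fold change 4.29 with SE 0.26). The monocarboxylate transporter gene SLC16A6 (ENSDARG00000060246) rose from 9.86 ± 6.4 to 84 ± 10.8 CPM and the pair of SLC16A9 genes by 3.91 (ENSDARG00000013926) and 1.49 (ENSDARG00000104687) on the log2 scale. Others of the list, cahz and SLC4A1 (ENSDARG00000012881), are red cell genes and are taken up with those below.

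Among listed regulators of the actin cytoskeleton and of the cell membrane 19 of 49 rose (38.8%) and 2 fell (4.08%), with a median of 0.49. Of all tested genes 4.25% rose and 6.40% fell. The 19 became 12 without mutant replicate 1. This list, like the others, was chosen with earlier results of these data known, so its share of rises is no independent support. s100a10b, the partner of annexin A2 at the plasma membrane, was at 31.5, 27.8 and 33.5 CPM in siblings and 154, 145 and 142 CPM in mutants (adjusted p = 0.0002, log2 fold change 2.25 with SE 0.12). ANXA2, an annexin gene, was at 46, 31.4 and 44.8 CPM in siblings and 196, 166 and 198 CPM in mutants (adjusted p = 0.00085, log2 fold change 2.20 with SE 0.17). Both sets of mutant libraries lay far above their siblings. The tropomyosin gene TPM4 rose from 2.96 ± 0.757 to 19.3 ± 2.94 CPM, the membrane linker gene MSN from 34.3 ± 8.02 to 71.3 ± 7.52 CPM and the actin crosslinker gene flna from 58.1 ± 13.1 to 134 ± 35.4 CPM. The integrin subunit genes named ITGB1 moved apart, ITGB1 (ENSDARG00000022689) down from 14.4 to 4.87 CPM and ITGB1 (ENSDARG00000104484) up from 33 to 50.2 CPM, the latter call lost with mutant replicates 1 or 3 left out, at adjusted p from 0.058 to 0.069 and, with that of flna, in the 12-library fit (adjusted p of 0.194 for flna and 0.0504 for ITGB1).

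Some junction and matrix genes rose, in counts that depended on single libraries. Of 40 junction genes 7 rose (17.5%) and 1 fell (2.5%), where 4.25% of all tested genes rose and 6.40% fell. The 7 became 3 without mutant replicate 1, 3 without mutant replicate 2 and 3 without sibling replicate 2. cldnf, a claudin of tight junctions, rose from 9.82 ± 2.47 to 25.8 ± 5.92 CPM (adjusted p = 0.0088). The plakoglobin gene JUP (ENSDARG00000059067) fell from 23.7 ± 2.4 to 9.54 ± 0.563 CPM, while its paralog JUP (ENSDARG00000070787) was not called (580.1 to 615 CPM, adjusted p = 0.81). E-cadherin, cdh1, rose from 239.6 ± 40.5 to 381 ± 62.8 CPM, a call lost with mutant replicates 1, 2 or 3 or sibling replicates 1 or 2 left out, at adjusted p from 0.075 to 0.13 and in the 12-library fit (adjusted p = 0.072), where 4 junction genes rose. Of 39 collagen and basement membrane genes 7 rose (17.9%) and none fell. The 7 became 0 without mutant replicate 1, 4 without mutant replicate 2 and 1 without mutant replicate 3. They became 0 without sibling replicate 2, 3 without sibling replicate 3 and 0 in the 12-library fit. Among matrix proteases and their inhibitors TIMP2 (ENSDARG00000075261) rose from 2.76 ± 0.681 to 26.2 ± 6.81 CPM. The gelatinase gene MMP9 was at 6.66, 9.08 and 6.38 CPM in siblings and 30.1, 30.9 and 26.8 CPM in mutants (adjusted p = 0.0011, log2 fold change 1.99 with SE 0.18). The stromelysin gene MMP11 fell from 17.2 ± 7.22 to 4.82 ± 0.477 CPM.

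Lists of cell division, cell death, ribosomes and stress held few calls. Of all tested genes 4.25% rose and 6.40% fell. These lists held shares below or near those, or shares that rest on few calls. None of 29 genes of G2 and mitosis was called by edgeR or DESeq2 or had an unadjusted p under 0.05 (median −0.02). The standard proliferation marker mki67 was at 73.1, 97 and 84.9 CPM in siblings and 88.6, 65.4 and 66.6 CPM in mutants (adjusted p = 0.48), with overlap. Of 39 S phase genes none rose and 1 fell, the cell cycle inhibitor gene cdkn1a (48.3 to 31.4 CPM, lost with mutant replicates 1 or 3 or sibling replicate 2 left out, at adjusted p from 0.067 to 0.092). Of 30 apoptosis and p53 genes 2 fell (6.67%), cdkn1a again and BCL2, an inhibitor of apoptosis, from 21.3 ± 3.21 to 8.24 ± 1.24 CPM (adjusted p = 0.0031). Of 38 ribosome biogenesis genes 2 rose (5.26%), and all 38 had a log2 fold change above 0 (median 0.43). The 2 became 0 without mutant replicate 1, 1 without mutant replicate 2, 0 without mutant replicate 3, 18 without sibling replicate 1, 0 without sibling replicate 2 and 0 without sibling replicate 3. Of 45 cytosolic ribosomal protein genes 1 fell and none rose. In the unfolded protein and integrated stress list 3 of 32 rose (9.38%), or 6 without sibling replicate 1. Among them CEBPB, a factor of stress and inflammation, rose from 27.4 ± 8.4 to 137 ± 20 CPM, and ASNS, the asparagine synthetase that Atf4 induces, from 38.9 ± 2.52 to 67.2 ± 5.76 CPM. The chaperone gene HSPA5 was not called (log2 fold change 0.13, adjusted p = 0.76). Of 36 heat shock genes 3 rose (8.33%) and none fell, led by HSPB1, from 2.79 ± 0.72 to 9.19 ± 3.16 CPM. The 3 became 1 without mutant replicate 1, 1 without mutant replicate 3, 1 without sibling replicate 2 and 7 without sibling replicate 3. With all 12 libraries in the fit the calls of cdkn1a, ASNS and HSPB1 were lost (adjusted p from 0.076 to 0.29).

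A few abundant genes with large changes belong to none of these lists. They were picked after their values were seen, among 39 genes that fell by at least 1.5 on the log2 scale from at least 20 CPM and 47 that rose by as much to at least 50 CPM, with no overlap between genotypes. vcanb, a versican proteoglycan gene, fell from 76.5 ± 23.8 to 11.8 ± 3.49 CPM (adjusted p = 0.0016, log2 fold change −2.69 with SE 0.30). The adhesion gene tenm1 fell from 27.1 ± 14.7 to 5.44 ± 1.01 CPM, the amino acid transporter gene SLC6A15 from 38.5 ± 7.71 to 10.1 ± 0.792 CPM and the potassium channel gene kcnh7 from 33.3 ± 11.3 to 10.1 ± 1.54 CPM. RPRM (ENSDARG00000053383), a cell cycle arrest gene, fell from 30.1 ± 1.96 to 9.27 ± 1.91 CPM. WNT9B, a Wnt ligand gene, rose from 52.2 ± 7.15 to 165 ± 30.7 CPM (adjusted p = 0.0012, log2 fold change 1.66 with SE 0.17). The calls of RPRM and WNT9B were lost in the 12-library fit (adjusted p from 0.061 to 0.11). The factor genes ets2 and SALL1 (ENSDARG00000075891) rose from 43.3 ± 10.5 to 177 ± 14.2 CPM and 18.1 ± 5.19 to 60.2 ± 11.7 CPM, and ODC1, the first enzyme of polyamine synthesis, from 27 ± 10.3 to 152 ± 20.8 CPM. CLU, the extracellular chaperone clusterin, rose from 5.45 ± 3.25 to 57.8 ± 15.7 CPM. Among membrane proteins of the ms4a17a family, ms4a17a.2, ms4a17a.7 and ms4a17a.9 rose by 2.16, 1.80 and 1.6 on the log2 scale, with the call of ms4a17a.2 lost with mutant replicate 3 left out, at adjusted p = 0.051. By fold, scpp8, a secretory calcium-binding phosphoprotein gene, rose most among genes named for their fold, with mutant replicate 2 highest, from 0.225 ± 0.0329 to 31.8 ± 34.8 CPM (6, 6 and 7 counts in siblings and 239, 1905 and 430 counts in mutants, adjusted p = 0.0033).

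Genotype also went with markers of cells that neuromasts do not contain. Of 17 erythrocyte markers 11 rose (64.7%) and none fell, where 4.25% of all tested genes rose. The summed level of these markers was 229 to 329.6 CPM in siblings and 1309 to 1858 CPM in mutants. The erythroid gene alas2, which starts haem synthesis, was at 5.38, 7.34 and 5.49 CPM in siblings and 81, 55.7 and 62.9 CPM in mutants (adjusted p = 0.00032, log2 fold change 3.45 with SE 0.20). SLC4A1 (ENSDARG00000012881), the red cell anion exchanger, rose from 12.9 ± 2.98 to 181 ± 51.1 CPM. The red cell carbonic anhydrase gene cahz rose from 15.4 ± 4.35 to 98.7 ± 24.9 CPM, and gata1a, the master factor of red cells, from 0.966 ± 0.417 to 8.04 ± 2.43 CPM. Of 16 endothelium markers 5 rose and none fell, with sums of 134 to 180 CPM in siblings and 249 to 269.9 CPM in mutants. The 5 became 3 without mutant replicate 1, 2 without mutant replicate 2, 3 without mutant replicate 3 and 8 without sibling replicate 1, and 3 in the 12-library fit. Of 32 skeletal muscle markers 16 rose and none fell, with sums of 103 to 122 CPM in siblings and 232 to 385 CPM in mutants, and the 16 became 10 without mutant replicate 2 and 8 without mutant replicate 3. The actin gene actc1b was at 6.86, 4.77 and 6.98 CPM in siblings and 30.2, 63.8 and 94.5 CPM in mutants (adjusted p = 0.0019, log2 fold change 3.34 with SE 0.39). These markers were also present in siblings, none of the 3 lists held a member at 0 in all 6 libraries, and the part of such cells in the other differences was not tested.

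Liver and pancreas markers varied between libraries and held few calls. Of 21 liver markers 3 fell, or 0 without mutant replicate 1, 5 without mutant replicate 2 and 1 without sibling replicate 2, and 1 rose. Sums were 1695 to 3267 CPM in siblings and 708 to 2064 CPM in mutants, which overlap. fabp10a, the fatty acid binding protein of liver, was at 77.5, 115 and 163 CPM in siblings and 10.8, 32.5 and 6.11 CPM in mutants (adjusted p = 0.014, lost with mutant replicate 1 left out, at adjusted p = 0.066). Other liver genes lead the largest falls by fold. The carboxylesterase gene ces3 had 637, 525 and 1081 counts in siblings and 16, 20 and 8 counts in mutants. The plasma glycoprotein gene ahsg1 had 105, 163 and 219 counts in siblings and 5, 6 and 0 counts in mutants, and CYP7A1, the rate-limiting enzyme of bile acid synthesis, had 303, 113 and 153 counts in siblings and 5, 24 and 7 counts in mutants. None of 17 exocrine pancreas genes was called by edgeR or DESeq2, 7 had an unadjusted p under 0.05, and all 17 had a log2 fold change below 0 (median −1.35). Sums ran over 1448 to 9068 CPM in siblings and 882 to 2679 CPM in mutants. The highest value is that of sibling replicate 2. Neuron markers had 2 of 21 fall (9.52%) and none rise, where 6.40% of all genes fell and 4.25% rose. Their median log2 fold change was 0.63, with 15 of 21 above 0. Of these neuron markers 4 were higher at an unadjusted p under 0.05 by edgeR, and DESeq2 called 2 higher. Epidermis markers had 6 of 23 rise (or 3 without mutant replicate 1 and 3 without sibling replicate 2) and 1 fall. Ionocyte markers had 1 of 22 rise and 3 fall. The keratin gene krt4 of the surface epidermis was abundant in both genotypes (1622 to 1956 CPM, adjusted p = 0.27), as was the collagen gene col1a1a (1261 to 778 CPM, adjusted p = 0.081).

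**Figure D4:**
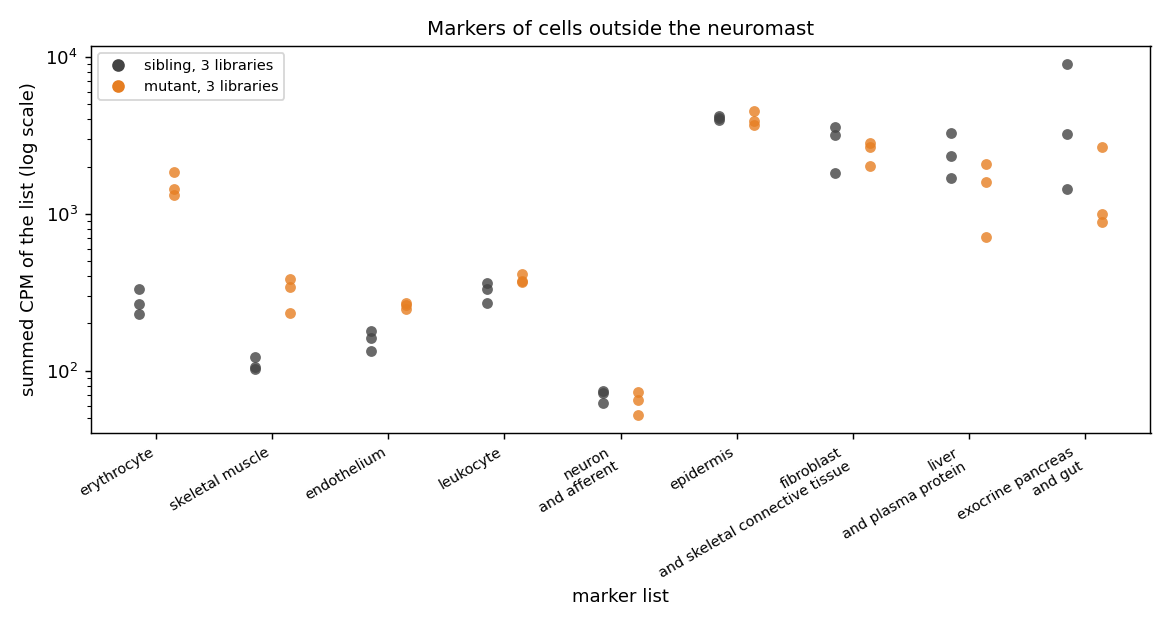
Summed CPM of marker lists of cells outside the neuromast, per library and on a log axis. Erythrocyte, skeletal muscle and endothelium sums are higher in all 3 mutant libraries than in any sibling library. Leukocyte sums do not overlap either, but the lowest mutant sum (366 CPM) lies close to the highest sibling sum (364 CPM). The other lists overlap between genotypes.

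The same genotypes were compared 3 h after neomycin, which kills lateral line hair cells, in 6 libraries that share none with homeostasis. There 625 of 20641 tested genes (3.03%) were called, 447 of them higher (2.17%) and 178 lower (0.862%) in mutants. Of the 885 genes that rose in homeostasis, 224 (25.3%) were also called higher at 3 h, which is 50.1% of the calls at 3 h, and none was called lower by edgeR (1 at an unadjusted p under 0.05). Of the 1332 that fell, 73 (5.48%) were also called lower, which is 41% of the calls at 3 h, and 2 were called higher. The sign alone was kept more often: among the calls tested in both fits, 827 of 874 that rose (94.6%) and 1120 of 1292 that fell (86.7%) had the same sign at 3 h, where 45.5% of all tested genes were above and 54.5% below 0. The counts at 3 h depended on each library, with 85 to 1189 genes called higher and 6 to 792 lower when 1 was left out. By library, the 447 and 178 became 1189 and 792 without sibling replicate 2, 235 and 103 without sibling replicate 1, and 155 and 56 without sibling replicate 3. They became 87 and 6, 108 and 13, and 85 and 10 without mutant replicates 1, 2 and 3. The 224 shared higher calls became 412 and the 73 shared lower calls 192 without sibling replicate 2, and 65 to 149 and 3 to 49 without another library.

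FOSL1 was still higher in mutants at 3 h, with 23.6 ± 4.36 CPM in siblings and 339 ± 43.4 CPM in mutants (log2 fold change 3.84, adjusted p = 0.0024). So were il6st, by 1.57 (adjusted p = 0.039), and HSD11B2, by 1.91 (adjusted p = 0.018). s100a10b had a log2 fold change of 1.05 and was not called there (adjusted p = 0.21). Of the 123 hair cell and cilia genes, whose median was −0.61 on the log2 scale at 3 h, 1 was called lower there, FOXJ1, and 1 higher, PKHD1L1 (ENSDARG00000091116). OTOF (ENSDARG00000020581) had a log2 fold change of −0.61 (adjusted p = 0.35) and POU4F3 one of −1.11 (adjusted p = 0.15). The median of the mechanotransduction list was −0.65 at 3 h beside −0.72 in homeostasis, and that of the calcium list −0.82 beside −0.87. The medians of the other lists among these 5 lay nearer 0 at 3 h. They were −0.43 beside −0.89 for the ribbon synapse, −0.49 beside −0.87 for the stereocilia and −0.63 beside −0.89 for cilia. The hair cell transcription factor list, not among the 5, had a median further from 0 at 3 h, −0.68 beside −0.40. The differences between these medians were not tested. Among red cell genes alas2 had a log2 fold change of 2.42 at 3 h (adjusted p = 0.034).

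**Figure D5:**
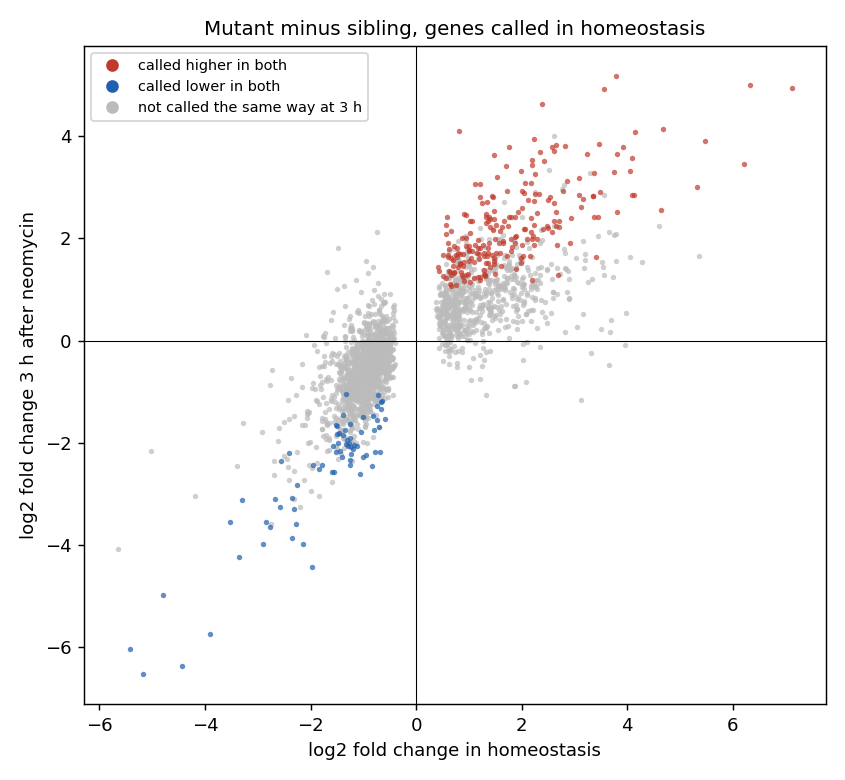
Log2 fold change, mutant minus sibling, in homeostasis and 3 h after neomycin for 2159 of the 2166 genes called in homeostasis and tested in both; coloured points were called the same way in both fits and grey points were not. Genes with at most 3 counts in a genotype in homeostasis are not drawn, and most points lie in the lower left and upper right quadrants.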

How the data were processed

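RNA-seq was analysed for 6 homeostasis libraries and, in a separate fit, 6 libraries taken 3 h after neomycin. ATAC-seq data, 18 samples, were not used here. Libraries were made with the SMART-Seq v4 kit, per the labels' protocols; this kit keeps no strand information, so that a gene's reads cannot be told from those of an antisense or overlapping neighbour. The authors deposited 1 table of raw counts per Ensembl gene, not normalized. Per the submitters' processing notes, the tools include bcl2fastq 2.18, STAR 2.7.3a, RSEM and Bowtie2, with the build danRer11. No annotation or filter is given. Entries that name no gene (multimapping, unassigned and the like) took 29.6% to 35.2% of reads in the 6 homeostasis libraries and were left out. Replicates of a genotype differed by more than counting noise in all 6 pairs within a genotype (chi-square over genes with at least 20 counts). This does not show whether they are separate biological samples. Each library was counted as 1 sample. Counts are of amplified reads without molecular identifiers, so the 95% interval of isl1a covers counting error only.

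Genes were filtered by edgeR 4.0.16's filterByExpr over both genotypes, which kept 20816 of 32520, scaled by TMM and tested two-sided with the quasi-likelihood test in R 4.3.3, with p-values adjusted after Benjamini-Hochberg over all genes tested (biological coefficient of variation 24.3%). Standard errors come from the log2 fold change and its F statistic. The script was tested on simulated counts of 20449 genes. It recovered 49% of 100 genes with a true absolute log2 fold change of 1 and 94% of 100 genes with one of 2, with 6 false calls. A gene that was not called may therefore still differ by about 1 on the log2 scale. Alternatives were DESeq2 1.42.0, RLE scaling, other filters and thresholds, a fit of all 12 libraries, a replicate block and leaving out each library. Symbols were found for 29201 IDs. The 49 gene lists hold 1377 names, of which 1262 matched; 1358 of their 1507 gene IDs were tested. Members and lists were chosen with earlier results of these data known. Named genes are isl1a and LIM homeodomain genes; among calls past 1 on the log2 scale whose symbol is informative and whose genotypes do not overlap, the 15 higher and 15 lower with the smallest p and the 8 and 8 with the largest fold and at least 5 CPM in a genotype; and up to 5 called members of a list, or its most abundant ones where none was called. Other named genes were chosen after their values were seen, and not all that the rule gives are printed.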

Additional observations from a re-analysis of the deposited data

Results flagged for a closer look

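For 3 named genes the difference between genotypes itself differed between homeostasis and 3 h after neomycin, by the interaction term of an edgeR fit of all 12 libraries with adjustment over 22000 genes, of which 23 passed. The carbonic anhydrase gene ca4a was higher in mutants by 4.29 on the log2 scale in homeostasis and by 1.53 at 3 h (interaction adjusted p = 0.0474). All 3 mutant libraries were above all 3 siblings at both times. PRDM1 was lower in mutants in homeostasis, with a log2 fold change of −0.84, and higher in each mutant library at 3 h, where it was 0.80 and not called by itself (adjusted p = 0.096; interaction adjusted p = 0.0465). BCL2 went from 21.3 ± 3.21 to 8.24 ± 1.24 CPM in homeostasis, while at 3 h it stood at 3.11 ± 0.607 CPM in siblings and 6.56 ± 0.701 CPM in mutants, with log2 fold changes of −1.37 and 1.07 (interaction adjusted p = 0.015). In both genes the genotypes did not overlap at either time, and the cause was not tested. With 3 libraries a genotype, single libraries that stand apart were not searched for gene by gene.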

How the results depend on the processing

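No gene called in homeostasis was called in the other direction under any alternative run. The 2217 calls (885 higher, 1332 lower) stayed within 1.5 times with RLE scaling, with no filter on low counts and with a mean of at least 5 CPM. DESeq2 called 3216, of which 1433 were higher. One fit of all 12 libraries called 785, with 407 higher and 378 lower, so that 51.8% were higher against 39.9% in the fit of 6. An adjusted p under 0.1 gave 3341, of which 1460 were higher, and a minimum change of 1 on the log2 scale left 1188, with 527 higher and 661 lower. With 1 library left out, 1107 to 2318 genes were called, 424 to 1080 higher and 683 to 1267 lower. The counts fell by more than 1.5 times without mutant replicate 1 (424 and 683) and mutant replicate 3 (453 and 756), and higher calls also without mutant replicate 2 (577) and sibling replicate 2 (495). Calls shared with 3 h after neomycin were 297 and ranged from 198 to 378 over the homeostasis alternatives, with the calls at 3 h held fixed. With 1 library left out of the 3 h fit instead, 65 to 412 higher and 3 to 192 lower calls were shared. The rule for named genes gave 190 called genes, not all of them printed and not all printed genes among them. Of these, 101 kept their call in every alternative and 132 in every fit without 1 library. In a wider check of 381 called genes, 239 kept their call in every fit without 1 library. That check took all lists, the rule and the abundant genes with large changes. The protease gene prss59.2 ranged from −1.49 without sibling replicate 3 to 0.026 without sibling replicate 2 on the log2 scale (adjusted p = 0.985 for the latter), a change of sign in a gene that was not called. Whether replicate numbers pair the samples could not be settled. Deviations from the group means of same-numbered mutants and siblings had r = 0.24, 0.07 and −0.06, and those of different-numbered ones had r from −0.30 to 0.22. A replicate block gave 2302 calls (1005 higher, 1297 lower).

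Each library held 26631753 to 29982980 counts. Replicates differed by more than counting noise over genes with at least 20 counts, but the effect of depth on precision was not tested. The labels do not say which larvae or clutches were pooled, so the p-values measure the spread between libraries.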

Other observations

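In homeostasis 4.25% of all tested genes rose and 6.40% fell, and the counts in this section stand beside these shares. Several lie near them or rest on few calls, so no change of a list as a whole is read from them. Single lipid signalling genes moved in both directions. Of 30 genes of prostaglandin and steroid metabolism 5 rose (16.7%) and 3 fell (10%). With 1 library left out 3 to 11 rose and 0 to 3 fell. The 5 became 3 without mutant replicate 1, 11 without sibling replicate 1 and 3 without sibling replicate 2, and the 3 became 1 without mutant replicate 2, 0 without mutant replicate 3 and 1 without sibling replicate 2. PLA2G4A (ENSDARG00000024546), a phospholipase that releases arachidonic acid from membranes, was at 11.1, 16.2 and 17.4 CPM in siblings and 37.1, 36.8 and 38.5 CPM in mutants (adjusted p = 0.0031, log2 fold change 1.33 with SE 0.18), without overlap, while its paralog PLA2G4A (ENSDARG00000017141) fell from 3.01 ± 0.836 to 0.669 ± 0.436 CPM. The prostaglandin synthase gene PTGS2 (ENSDARG00000004539) rose from 4.58 ± 2.61 to 16.8 ± 6.05 CPM and PTGIS, the prostacyclin synthase, from 12.1 ± 1.5 to 24.3 ± 4.13 CPM, whereas the prostaglandin transporter gene SLCO2A1 fell from 10.3 ± 1.79 to 5.05 ± 1.09 CPM. CYP26A1, which degrades retinoic acid, rose from 4.92 ± 1.06 to 10.8 ± 2.56 CPM. In cholesterol synthesis 3 of 25 genes rose and 1 fell, and the 3 became 1 without mutant replicate 1, 1 without mutant replicate 2 and 1 without sibling replicate 2. ldlra, an uptake receptor for lipoproteins, rose from 11.6 ± 2.99 to 34 ± 6.42 CPM (adjusted p = 0.0036, log2 fold change 1.55 with SE 0.22), HMGCS1 from 50.4 ± 7.81 to 80 ± 11.4 CPM and insig1 from 35.4 ± 6.7 to 56.1 ± 4.02 CPM, and HSD17B7, an enzyme of a later step of the pathway, fell from 217 ± 25.5 to 99.9 ± 12.6 CPM (adjusted p = 0.0025, log2 fold change −1.12 with SE 0.14).

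Of 30 matrix metalloprotease, Timp and serpin genes 4 rose (13.3%) and 2 fell (6.67%), where 4.25% of all tested genes rose and 6.40% fell. The 4 became 2 without mutant replicate 1, 2 without mutant replicate 3, 7 without sibling replicate 1 and 2 without sibling replicate 2, and the 2 became 1 without mutant replicate 1, 1 without mutant replicate 3 and 1 without sibling replicate 2. MMP2, a gelatinase, rose from 82.4 ± 20.4 to 155 ± 30.8 CPM. Of 37 Hox genes 2 rose (5.41%), HOXB8 by 0.59 and HOXA3 by 0.60 on the log2 scale. The 1 that fell (2.7%), HOXA11 (ENSDARG00000007009), did so by 1.66. With 1 library left out 0 to 1 rose and 0 to 1 fell, and none was called in a fit of all 12 libraries. Markers of other cells held few calls: 1 of 11 glia markers rose, 2 of 20 fibroblast markers rose, 1 of 14 pigment cell markers rose and 1 fell, and 1 of 8 notochord and floor plate markers, SHH (ENSDARG00000068567), rose from a very low level (0.226 to 1.17 CPM). None of 3 retina and lens markers was called by edgeR or DESeq2 or had an unadjusted p under 0.05. The calls of PLA2G4A (ENSDARG00000024546), PTGIS, ldlra and HSD17B7 held when any 1 library was left out, while each other call named here was lost without at least 1 library, at adjusted p from 0.052 to 0.14. In the 12-library fit the calls of PLA2G4A (ENSDARG00000017141), SLCO2A1, CYP26A1, HMGCS1, insig1, HSD17B7, MMP2 and the 3 Hox genes were lost (adjusted p from 0.064 to 0.17).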
